A study of Homo sapiens with 4 samples.

Results

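The 10 genes described here are used to place a cell between the epithelial and the mesenchymal state: VIM, CDH2, ZEB1, ZEB2, SNAI1, SNAI2, TWIST1, CDH1, EPCAM and ESRP1. Trimethylation of lysine 4 of histone H3 (H3K4me3) was read at their promoters from lists of peaks that the authors deposited. A peak was taken as a member when it overlapped the stretch of 2 kb either side of the gene's start site in hg19. This gave 5 of the 23588 peaks of the ARID1A knockout list and 7 of the 36677 peaks of the control list, 12 peaks in all. The cells were MDA-MB-231, an established triple-negative breast cancer line, either with the genotype label ARID1A knockout or with the label control. ARID1A belongs to the BAF (SWI/SNF) complex, which moves nucleosomes and contacts DNA in part through this subunit, and the design compares where H3K4me3 lies with and without it. Each genotype had 1 H3K4me3 immunoprecipitate (IP) and 1 input library, with no drug treatment or time point in the labels. The labels do not say how the knockout was made, whether its cells come from 1 clone or what the control cells carry. The knockout list names its library K6, which no label repeats, and was taken as knockout from its file name. The cell line labels of 3 of the 4 libraries end in other numbers than MDA-MB-231, and the inputs carry IgG as their antibody label.

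The knockout IP held 13391724 tags (aligned reads), of which 99.4% lay in peaks, and the control IP held 27748061 tags, of which 62.1% lay in peaks. The median knockout peak was 300 bp wide with 419 tags, and the median control peak was 2968 bp wide with 168 tags. Peaks were called separately in each genotype against its own input. With 1 IP library per genotype no difference had a replicate check and no test was made. All intervals below are 95% intervals for counting error. Copies of 1 fragment would count as separate tags in them and make them too narrow. Some knockout peaks held more tags than bases on both strands, such as 1644 tags over 478 bp upstream of EPCAM. Some tags there therefore share a position, and whether they are copies was not tested.

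In the epithelial to mesenchymal transition, cells give up the junctions that hold a sheet together and take on a motile form. Transcription factors of the ZEB, SNAI and TWIST families repress epithelial genes such as CDH1, and mesenchymal genes such as VIM are switched on. MDA-MB-231 is widely used as a line on the mesenchymal side. H3K4me3 marks the start regions of active and poised genes, most often those rich in CpG dinucleotides, and is not a direct measure of how much RNA is made.

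Promoter sequence from RefSeq on GRCh38.p14 was matched by symbol for 4 of the 10 genes, VIM, CDH2, ZEB1 and ZEB2. Its positions are not on the scale of the peaks, all of which are in hg19. The 250 bases before the start are shown for these 4, 5′ to 3′ on the strand of the gene with CpG dinucleotides in capitals, because they cover the range of outcomes below: VIM and ZEB1 had peaks in both lists, ZEB2 in the control alone and CDH2 in neither. ZEB1 has 7 RefSeq starts and CDH2 has 2. The window with the most CpG dinucleotides is printed for each, and which start matches the hg19 site used for the peaks was not settled.

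VIM, chr10:17227991-17228240, plus strand: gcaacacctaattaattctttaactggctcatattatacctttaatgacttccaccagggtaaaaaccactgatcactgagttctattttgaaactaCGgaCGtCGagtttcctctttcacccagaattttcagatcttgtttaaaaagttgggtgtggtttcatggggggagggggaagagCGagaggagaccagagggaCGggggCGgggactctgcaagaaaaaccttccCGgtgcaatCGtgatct

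CDH2, chr18:28177131-28177380, minus strand: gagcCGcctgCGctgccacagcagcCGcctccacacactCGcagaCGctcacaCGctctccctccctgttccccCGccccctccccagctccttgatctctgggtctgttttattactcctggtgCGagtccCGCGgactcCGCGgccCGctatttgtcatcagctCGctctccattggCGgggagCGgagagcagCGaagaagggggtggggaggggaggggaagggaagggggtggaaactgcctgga

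ZEB1, chr10:31319518-31319767, plus strand: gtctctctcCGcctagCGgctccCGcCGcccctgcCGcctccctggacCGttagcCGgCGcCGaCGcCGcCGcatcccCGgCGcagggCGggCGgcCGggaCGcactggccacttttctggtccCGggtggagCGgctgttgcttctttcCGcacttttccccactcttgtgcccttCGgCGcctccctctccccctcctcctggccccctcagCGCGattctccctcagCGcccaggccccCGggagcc

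ZEB2, chr2:144520120-144520369, minus strand: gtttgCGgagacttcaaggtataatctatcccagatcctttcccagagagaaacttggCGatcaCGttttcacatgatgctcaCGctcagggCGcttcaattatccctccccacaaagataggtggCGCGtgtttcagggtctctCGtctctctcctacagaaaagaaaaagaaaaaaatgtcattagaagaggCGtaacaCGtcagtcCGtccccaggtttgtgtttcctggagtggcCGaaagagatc

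The printed windows held 8 CpG dinucleotides for VIM, 17 for CDH2, 27 for ZEB1 and 12 for ZEB2. The median over 35114 RefSeq promoter windows of 250 bases was 11, with quartiles of 3 and 23. The other CDH2 window had 4, fewer than any window of the other 3 genes, and the 7 ZEB1 windows ran from 7 to 27. With the CDH2 start not settled, no order of CpG number against the peaks can be read from these 4 genes. The E-box CACCTG, searched on both strands, a sequence that the ZEB and SNAI proteins bind, occurred in 2 of the 7 ZEB1 windows and in none of those of VIM, ZEB2 or CDH2. It was found in 17.5% of all windows of this length.

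Of the 10 genes, 4 had a knockout peak within 2 kb of the start and 7 had a control peak. VIM, ZEB1, SNAI2 and EPCAM had peaks in both lists. ZEB2, SNAI1 and ESRP1 had a control peak alone, and CDH1, CDH2 and TWIST1 had none in either list. No gene had a knockout peak alone. The 4 of 7 control domains that held a knockout peak stand beside 28.4% of all 36677 control peaks. All 5 knockout member peaks lay inside the control peak of the same gene. At VIM, ZEB1 and SNAI2 the control peak spans the whole window of 2 kb either side. Any knockout member peak of these genes therefore had to overlap it. Of all knockout peaks, wherever they lie, 60.3% lay in a control peak, which is not a like comparison. Among the 7 mesenchymal genes 3 had a knockout peak and 5 a control peak. Among the 3 epithelial genes 1 had a knockout peak and 2 a control peak.

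**Figure D1:**
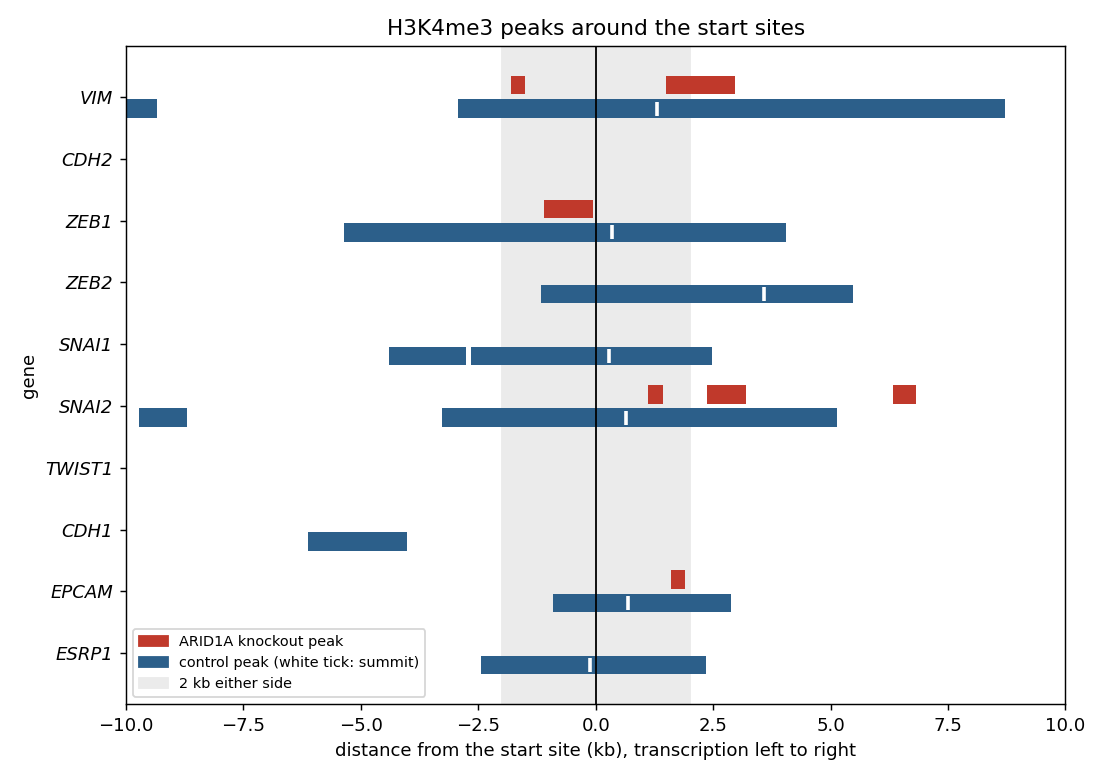
Knockout peaks (red, upper) and control peaks (blue, lower) within 10 kb of each start site, with distance from the start in kb on the x axis, transcription running left to right, and the 2 kb window in grey. No red bar reaches the start line, and blue bars cross it at 7 genes.

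None of the 5 knockout peaks covered the start site of its gene, and all 7 control peaks did, as the plot of peaks around the start sites shows. The knockout member peaks were 300 to 1480 bp wide and the control ones 3784 to 11656 bp, and a narrow peak covers any given point less often. The share of start sites covered over all genes was not analysed here. The nearest knockout peak, at ZEB1, ended 59 bp before the start. At VIM, SNAI2 and EPCAM the closest edges were 1494, 1109 and 1603 bp from the start. With a window of 1 kb either side, therefore, 1 of the 10 genes (ZEB1) had a knockout peak, and the same 7 had a control peak.

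VIM encodes vimentin, the intermediate filament protein of mesenchymal cells. In the knockout list it had 2 peaks on chromosome 10, a smaller one from 17268448 to 17268762 that held 278 tags and a larger one from 17271752 to 17273231 that held 1764. In the control list it had 1 peak, from 17267321 to 17278976, with 3325 tags over 11656 bp. The knockout peaks sat on either side of the start, from 1810 to 1496 bp upstream and from 1494 to 2973 bp downstream. The downstream one, 1480 bp wide, was in the widest 1% of its list (percentile 99.2), while the upstream one was close to the size of a fragment at 315 bp. The control domain ranked at percentile 99.4 of its list by tags and 98.3 by width. RefSeq places the antisense gene VIM-AS1 over VIM, and because the mark has no strand its signal cannot be told apart from that of VIM.

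CDH2 encodes N-cadherin, the adhesion protein that often replaces E-cadherin in mesenchymal cells. No peak lay near its start in either list. The nearest knockout peak was 64537 bp downstream with 217 tags, and the nearest control peak 48646 bp downstream with 38 tags and a false discovery rate of 27.97%. Vimentin and N-cadherin, both taken as mesenchymal markers, thus differed in their promoter mark in both lists. A missing peak means that no region passed the caller's p cutoff of 0.0001, not that the mark was absent. The smallest listed peaks held 12 tags in the knockout and 18 in the control.

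ZEB1 and ZEB2 are zinc finger repressors of epithelial genes, and their peaks were not alike. ZEB1 had 1 knockout peak on chromosome 10, from 31607010 to 31608042, with 667 tags over 1033 bp. Its control peak ran from 31602745 to 31612156 with 2557 tags over 9412 bp. The knockout peak lay wholly upstream, from 1091 to 59 bp before the start, and the control summit lay 342 bp downstream. ZEB2 had no knockout peak, the nearest being 48555 bp upstream with 466 tags. The ZEB2 control peak, on chromosome 2 from 145272473 to 145279119, held 732 tags over 6647 bp and had its summit 3582 bp downstream of the start, farther than at any of the other 6 genes with a control peak, where it lay 129 to 1314 bp away. RefSeq lists the antisense genes ZEB1-AS1 and ZEB2-AS1 over these loci, so the strand of the signal is again unknown.

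SNAI1 (Snail) and SNAI2 (Slug) are zinc finger repressors that bind E-boxes, in the CDH1 promoter among others. SNAI1 had no knockout peak, and the nearest was 32711 bp downstream with 382 tags. Its control peak on chromosome 20, from 48596851 to 48601982, held 616 tags over 5132 bp with the summit 288 bp downstream. SNAI2 had 1 knockout peak within 2 kb, on chromosome 8 from 49832559 to 49832879, with 369 tags over 321 bp, 1109 to 1429 bp downstream of the start. Its control peak ran from 49828848 to 49837267 with 2494 tags over 8420 bp and had its summit 641 bp downstream. A further knockout peak lay in that control domain but outside the window, 2376 to 3210 bp downstream, and held 1591 tags over 835 bp. The larger share of the knockout tags in the SNAI2 domain was thus beyond the 2 kb limit, and the whole domain held 1960 knockout tags. Another knockout peak lay outside the control domain and in no control peak, 6339 to 6813 bp downstream, with 500 tags over 475 bp.

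TWIST1, a basic helix-loop-helix factor that promotes the transition, had no peak in its window in either list. The nearest knockout peak was 19757 bp downstream, held 1173 tags over 516 bp and ranked at percentile 88.6 of its list. The nearest control peak was 92192 bp downstream with 59 tags. Among the 5 transcription factors, ZEB1 and SNAI2 therefore carried peaks in both lists, ZEB2 and SNAI1 in the control alone and TWIST1 in neither.

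The epithelial genes were also mixed. CDH1, which encodes E-cadherin, had no peak within 2 kb in either list. The nearest knockout peak was 30199 bp upstream with 177 tags. The nearest control peak ended 4025 bp upstream of the start and was weak, with 88 tags over 2109 bp and a false discovery rate of 5.52%. EPCAM, an epithelial cell adhesion molecule, had a knockout peak on chromosome 2 from 47597890 to 47598189 with 121 tags over 300 bp, at percentile 17.4 of its list by tags. The EPCAM control peak ran from 47595375 to 47599158 with 461 tags over 3784 bp. ESRP1, a splicing factor that maintains epithelial isoforms, had no knockout peak, the nearest being 50292 bp upstream with 12 tags. Its control peak on chromosome 8 ran from 95650930 to 95655718 with 700 tags over 4789 bp. An H3K4me3 peak in control cells was thus found at 2 of the 3 epithelial markers.

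Levels were compared between genes as tags per kb of peak, within a list. In the knockout list SNAI2 had 1149.5 tags per kb of peak (1035.2 to 1273.0) and VIM 1137.6 (1088.8 to 1188), which overlapped. ZEB1 had 646 (598 to 697) and EPCAM 403 (335 to 482), each below its neighbour. Against the knockout median of 1094.3 tags per kb, SNAI2 and VIM were near the middle of their list and ZEB1 and EPCAM below it. The place of SNAI2 rests on the 2 kb limit, which keeps the smaller of the 2 knockout peaks in its control domain. Both together, an alternative chosen after seeing the data, had 1695.5 tags per kb (1621.3 to 1772.3), above VIM.

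Per length, the 7 control domains formed 2 levels. SNAI2 had 296 tags per kb of peak (interval 285 to 308), VIM 285 (276 to 295) and ZEB1 272 (261 to 282). All 3 are mesenchymal genes and ranked at percentile 98.2 or above of the control list. SNAI2 and VIM, and VIM and ZEB1, were neighbours whose intervals overlapped. The other 4 had 110 to 146 tags per kb: ESRP1 146 (136 to 157), EPCAM 122 (111 to 133), SNAI1 120 (111 to 130) and ZEB2 110 (102 to 118). Those of EPCAM, SNAI1 and ZEB2 overlapped, and ESRP1 lay above them. The lower level held epithelial and mesenchymal genes together, at percentile 69.1 or above of a list whose median was 56.5 tags per kb.

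By density, the member peaks of VIM, ZEB1 and SNAI2 ranked at percentiles 31.5 to 53.7 of the knockout list and at 98.2 to 99.1 of the control list. These 3 were set apart by their high control density, which favours a lower rank in the other list. EPCAM ranked at percentiles 20.7 and 71.4. The larger SNAI2 knockout peak, beyond the 2 kb limit, is not in this range. It had 1905.4 tags per kb, above the upper quartile of the knockout list (1877.5). Density in the knockout peaks was 2.38 (ZEB1), 3.31 (EPCAM), 3.88 (SNAI2) and 3.99 (VIM) times that in the control peak of the same gene. The knockout peaks of these genes were as wide as 11%, 7.93%, 3.81% and 15.4% of the control peak, in the same order, so the densities average over stretches of very different length. With every knockout peak of the control domain taken in, SNAI2 had a ratio of 5.72, above the other 3, at a width of 13.7% of the control peak, and the other 3 were unaltered. Over the 7552 control peaks that matched 1 knockout peak and no other, and the reverse, the median density ratio of knockout to control was 8.38. Those pairs were not matched to the members on control density, knockout width or number of peaks. A dense control peak lowers the ratio by construction, so 8.38 is not a like reference for the member ratios.

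**Figure D2:**
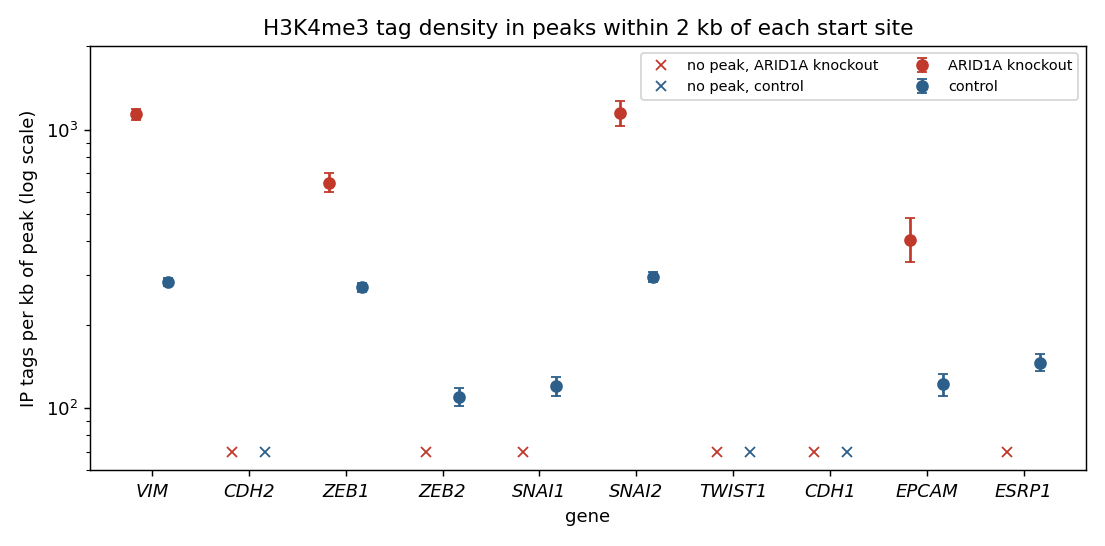
IP tags per kb of peak (y axis, log scale) for each gene in the knockout (red) and control (blue) lists, with exact Poisson 95% bars and crosses, set at an arbitrary height, where the list has no peak. Knockout values, from peaks that touch the 2 kb window, run from 403 at EPCAM to 1149.5 at SNAI2, and in the control SNAI2, VIM and ZEB1 stand at 272 to 296, above the other 4 at 110 to 146.

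Whether a control domain held a knockout peak followed its tag count in the whole list, as the plot by deciles of control tags shows. The 7 domains were therefore set beside domains of like tag count. Median width rose with the deciles too, from 1324 bp in decile 1 to 8010.5 bp in decile 10. A wider domain has more room for an overlap of 1 bp, and width was not matched. VIM, ZEB1 and SNAI2 were in decile 10 of the control peaks, that with the most tags, of which 84.2% held a knockout peak (83.0 to 85.4%), and all 3 held one. ZEB2, ESRP1 and SNAI1 were in decile 8, where the share was 53.7% (52.1 to 55.3%), and none of the 3 did. EPCAM was in decile 7, with a share of 29.5% (28.0 to 31.0%), and did. With 3, 3 and 1 genes per decile these outcomes are given as a description.

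**Figure D3:**
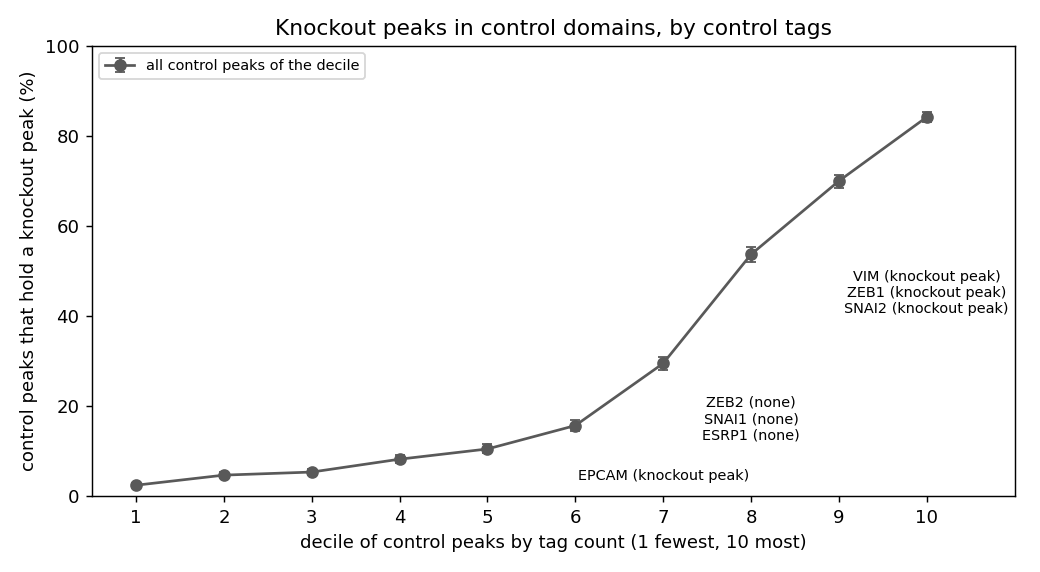
Share of control peaks that hold a knockout peak (y axis, %, exact Clopper-Pearson 95% bars) by decile of control tag count (x axis), with the 7 genes written under their decile and their own outcome in brackets. The share is 29.5% in decile 7, 53.7% in decile 8 and 84.2% in decile 10.

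Further features of the shared domains were compared with the lists. VIM and SNAI2, 2 of the 7 domains, held 2 knockout peaks each, beside 7.80% of all control peaks with 2 or more and 42.9% in their own decile. In none of the 4 shared domains did a knockout peak cover the control summit, beside 45.3% of the 10427 control peaks that held a knockout peak. The share was 49.9% of those in decile 10 and 40.2% of those in decile 7, the decile of EPCAM. With 4 domains this too is given as a description. The nearest knockout summit lay 628 bp from the control summit at SNAI2, 1073 bp at EPCAM, 1199 bp at ZEB1 and 1381 bp at VIM. The median over those 10427 control peaks was 341 bp (quartiles 121 and 724 bp). SNAI2 was inside the quartiles and the other 3 above them, at percentiles 85.5 to 90.5. The median was 352 bp in decile 10 and 356 bp in decile 7. Summits have more room to lie apart in a wider domain, and width was not matched. The control domains of VIM, ZEB1 and SNAI2 ranked at percentiles 94.6 to 98.3 by width.

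Tag counts were last compared as log2 of knockout over control, over all peaks that touch the 2 kb window and with each peak counted whole, centred on the median of the 7552 shared peaks because depth differs between the libraries. It was -0.25 (-0.33 to -0.17) at VIM, from 2042 knockout and 3325 control tags. ZEB1 had -1.48 (-1.61 to -1.36), from 667 knockout and 2557 control tags. EPCAM had -1.47 (-1.77 to -1.18), from 121 knockout and 461 control tags. SNAI2 had -2.30 (-2.46 to -2.14), from 369 knockout and 2494 control tags. The shared peaks are control peaks with 1 knockout peak, like ZEB1 and EPCAM. They come from all deciles of control tags, whereas ZEB1 was in decile 10. Many control tags lower the ratio by construction, and no reference matched on control tags was formed. VIM enters with the sum of 2 knockout peaks and SNAI2 with 1 of the 2 in its domain, so for both the place among the shared peaks compares unlike items. The middle 50% of the shared peaks ran from -1.23 to 1.18 on this scale, with ZEB1 and EPCAM below it, at percentiles 21.5 and 21.6. VIM would stand at percentile 44.1 and SNAI2 at 12.2. The middle 90% ran from -3.60 to 3.09 and held all 4.

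**Figure D4:**
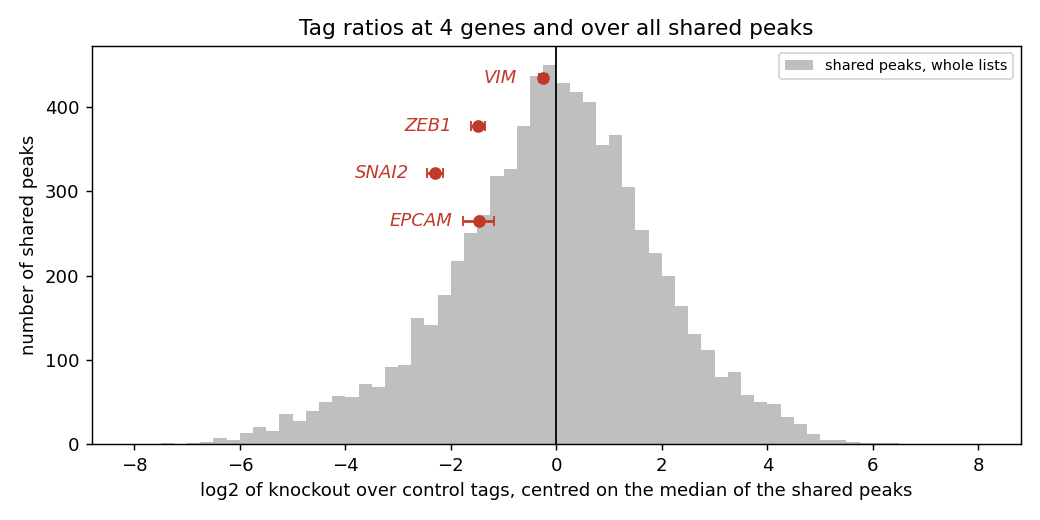
Number of shared peaks (grey bars, y axis) by log2 of knockout over control tags, centred on their median (x axis), with the 4 genes in red at arbitrary heights and 95% counting bars. All 4 lie below 0 on this scale, from -2.30 at SNAI2, which is 0.11 with both knockout peaks of its domain, to -0.25 at VIM, which is 0.35 after division by library totals.

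The signs of 2 of these ratios depended on the scale or window. Division by the library totals in place of centring raises every ratio by 0.60, which took VIM to 0.35. For SNAI2 the ratio was 0.11 with all peaks within 5 kb or with every knockout peak of its control domain, both of which take in the 1591 tags of the second knockout peak. ZEB1 and EPCAM stayed below 0 under each alternative run, at -1.82 to -0.89 and -1.55 to -0.87. The alternative per kb of peak width, -1.82 at ZEB1 and -1.33 at EPCAM, was also centred on the shared peaks. Their density ratio is not a like reference for these genes. No ratio was formed for ZEB2, SNAI1 and ESRP1, because tags outside peaks are not in the lists, nor for the 3 genes with no peak.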

How the data were processed

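H3K4me3 was profiled in 1 IP and 1 input library of ARID1A knockout and of control cells. Alignment with Bowtie2 2.2.4 to hg19 and peak calling with MACS 1.4.3 are given per the submitters' processing notes. Per the file headers, MACS compared each IP with the input of its genotype at a p cutoff of 0.0001. It did so after scaling the larger library down, so fold ratios differ in scale between lists. The fragment length of 300 bp was read for the knockout list alone. The authors' counts are raw IP tags per peak, as deposited. Their deposited score, a scaled log10 of p, the fold enrichment ratio and false discovery rate in percent served only to filter or describe peaks within a list. Positions, widths and summits are in bp.

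The members and lists were chosen with earlier results of these data known. All 10 genes are named. Overlap meant 1 bp or more, and was checked against bedtools 2.31.1. Ratios used a pseudocount of 1, and their step was tested on simulated data. Intervals are exact Poisson for tags, exact Clopper-Pearson for shares and exact binomial for ratios. Percentiles rank a peak in its own list. Gene strands came from RefSeq for 4 genes and from general knowledge for 6. Other genes of the transition were not analysed here for want of hg19 start sites. Python 3.11.15, scipy 1.17.1, numpy 2.4.6, matplotlib 3.10.9 and pandas 2.3.3 were used.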

Additional observations from a re-analysis of the deposited data

How the results depend on the processing

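The number of genes with a knockout peak, 4 as reported, was 1 within 1 kb of the start, because 3 of the knockout peaks closest to a start lie beyond it. It was 4 within 5 kb, at a false discovery rate of 1% or less and at a MACS p of 1e-10 or less, and 3 with knockout peaks wider than 300 bp alone, without EPCAM. The number with a control peak was 7 under each of these settings that applied except 5 kb, where CDH1 made 8. The number of control domains with a knockout peak was 4 under each overlap and threshold, and 3 with peaks wider than 300 bp. The share of all control peaks with a knockout peak, 28.4%, was 30.0% with a gap of up to 1 kb, 46.1% at a false discovery rate of 1% or less (20009 control peaks) and 17.2% with knockout peaks wider than 300 bp.

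Division by library totals adds 0.60 to each of the 4 ratios by construction, which took VIM to 0.35 and left the others at -1.70 to -0.87. SNAI2 was 0.11 within 5 kb, and also with every knockout peak of the control domain, an alternative chosen after seeing the data, because each adds a knockout peak. Under these 2 alternatives VIM, ZEB1 and EPCAM kept their values. Per kb of peak width, and centred on the median of the shared peaks on that scale, the 4 ratios were -1.82 to -1.07. Without centring, density was higher in the knockout peaks at all 4 genes, by 2.38 to 3.99 times. The shared peaks, with a median density ratio of 8.38, are not a like reference, so the sign of the centred values rests on that centring. No paired analysis was possible because each genotype had 1 IP library. Tags outside peaks were not in the files, so weak marking at genes with no peak could not be measured.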

Other observations

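The stretches of 30 kb around the start sites held further peaks in either list. EPCAM had 3 knockout peaks upstream beside the one in its window, among them a peak of 478 bp with 1644 tags, from 27049 to 26572 bp upstream, which lay inside a control peak with 559 tags. Upstream of VIM, from 27337 to 26902 bp, a knockout peak held 648 tags inside a control peak with 1023 tags, and 2 control peaks between that domain and the VIM domain, with 134 and 750 tags, held no knockout peak. ZEB1 and ZEB2 had no peak in this range other than those described, and CDH2 had none at all. The genes to which these flanking peaks belong were not analysed here.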
